A study of Mus musculus with 10 samples.

Results

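Here 10 genes that mark the endothelium, the cell layer lining blood vessels, were followed in RNA sequencing of the mouse pancreas: Kdr, Flt1, Tek, Eng, Pecam1, Cdh5, Emcn, Plvap, Vwf and Sox17. They were taken by symbol from the deposited table of raw counts, which held all 10 of them among 24421 genes, and all 10 had enough counts to be tested. The libraries came from a piece of the pancreas tail of female mice aged 12 weeks, with 1 library per mouse. The alleles that all mice carried include Ptf1aCreER, a recombinase that tamoxifen switches on, driven from a gene of the enzyme-making acinar cells, and the nuclear reporter nTnG. The insulin receptor gene Insr set the groups apart: 3 mice were Insrw/w (labelled WT, 0 floxed alleles), 3 were Insrw/f (Het, 1 floxed allele) and 4 were Insrf/f (KO, 2 floxed alleles), and a floxed allele is one that the recombinase can remove. The labels count 4 WT mice, of which 3 were analysed here. By its title, the study asks how the insulin receptor of acinar cells bears on the start of pancreatic cancer in obesity. The recombinase is driven from an acinar gene, not an endothelial one, and the table does not show in which cells Insr was removed. Each library is named by its group and mouse number.

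Endothelial cells sense growth factors of the VEGF family through the tyrosine kinase receptors encoded by Kdr and Flt1. Kdr encodes the receptor through which VEGF-A drives endothelial growth and permeability, whereas the Flt1 product binds VEGF-A tightly, signals weakly and also exists as a secreted form that traps the ligand. Tek encodes the receptor for angiopoietins, which steadies or loosens vessels, and Eng encodes endoglin, a co-receptor for circulating BMP ligands. Pecam1 and Cdh5 encode adhesion proteins of the contacts between endothelial cells, Emcn a mucin-like surface protein, Plvap the protein of the diaphragms that close the pores of fenestrated capillaries, Vwf a clotting protein stored in endothelial granules, and Sox17 a transcription factor of arterial endothelium. The exocrine and endocrine pancreas have dense capillary beds, with strongly fenestrated capillaries in the islets.

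Promoter sequence was at hand for 5 of the 10 genes (Eng, Emcn, Tek, Kdr and Flt1), and 3 are shown: those of Kdr and Flt1, the members with the highest log2 fold changes against WT, and of Eng, the member with the lowest. Each sequence is the 250 bases before the annotated start of the gene, read 5′ to 3′ on the gene's own strand from RefSeq on GRCm38.p6. Capitals mark GGAA, the core of the site bound by ETS factors, a transcription factor family active in endothelium, and TTCC, the same core on the other strand. The first sequence lies at chr5:75978456-75978705 (minus strand), the second at chr5:147726012-147726261 (minus strand) and the third at chr2:32646345-32646594 (plus strand).
Kdr: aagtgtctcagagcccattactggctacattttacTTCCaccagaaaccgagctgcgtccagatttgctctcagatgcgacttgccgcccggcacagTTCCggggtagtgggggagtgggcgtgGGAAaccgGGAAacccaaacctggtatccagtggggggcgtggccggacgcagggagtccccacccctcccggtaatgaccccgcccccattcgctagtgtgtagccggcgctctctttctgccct
Flt1: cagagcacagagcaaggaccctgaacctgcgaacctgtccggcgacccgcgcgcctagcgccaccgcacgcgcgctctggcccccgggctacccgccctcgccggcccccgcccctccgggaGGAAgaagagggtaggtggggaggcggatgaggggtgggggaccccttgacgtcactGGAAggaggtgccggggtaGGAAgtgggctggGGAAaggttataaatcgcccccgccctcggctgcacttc
Eng: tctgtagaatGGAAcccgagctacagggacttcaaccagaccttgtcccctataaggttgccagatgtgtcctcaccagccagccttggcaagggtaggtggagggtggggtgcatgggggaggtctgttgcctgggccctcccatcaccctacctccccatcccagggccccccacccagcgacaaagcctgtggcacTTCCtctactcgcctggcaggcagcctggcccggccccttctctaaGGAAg

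The Kdr promoter held 4 such cores, 2 on each strand, the Flt1 promoter 4, all on the printed strand, and the Eng promoter 3. The core is short, and 93.4% of the 27025 promoters of the same length in the table held it. The longer form AGGAAG, which contains the core, was found on either strand 2 times in each of the Flt1, Eng and Emcn promoters, 0 times in those of Kdr and Tek, and in 29.2% of all promoters. TATAA was found in the Flt1 and Eng promoters and in 23.5% of all. The SOX-type motif AACAAT occurred in the Emcn and Tek promoters and in 9.65% of all, and the GATA-type motif GATAA in none of the 5, against 23.0% of all. G and C made up 70.4% of the Flt1 window, 62.4% of that of Eng and 61.6% of that of Kdr, against 40.8% for Emcn and 51.2% for Tek.

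Libraries held 11718559 to 19024351 counts in genes, and the 10 endothelial genes together 1743 (KO-2126) to 13131 (WT-2404) of them. Counts of digestive enzyme genes (27 genes) took 15.7% of the total in WT-2404, 58.3% in WT-1860 and 62.3% to 77.3% in the other 8 libraries, so WT-2404 stands apart. Values are therefore CPM (counts divided by the library size in units of 1e+06) of library sizes scaled by edgeR's TMM factors, which ran from 0.596 in KO-2126 to 3.54 in WT-2404. By library size alone the median gene was lower by 1.17 (KO against WT) and 1.36 (Het against WT) on the log2 scale, and directions below are those on TMM-scaled values, or relative to the median gene. Insr itself was at 21.0 to 40.5 CPM in WT, 28.2 to 44.2 in Het and 22.7 to 35.5 in KO, which does not check the labels, since counts per gene do not show which exons were read and other cells also express it. With edgeR's quasi-likelihood test and an adjusted p threshold of 0.05, 0 of 13688 genes (0%) passed in any of 4 comparisons: KO with WT, Het with WT, KO with Het, and the mean of Het and KO (all mice with a floxed allele) with WT. Unadjusted p was under 0.05 for 3222, 2715, 103 and 3868 genes, and DESeq2 called 1009, 326, 0 and 1753. Without WT-2067 edgeR called 1932, 1160 and 2829 genes in the 3 comparisons with WT, and in the last of these 50 without KO-2079 and 490 without KO-2124, with 0 of the 10 endothelial genes among them. The comparisons with WT share the same WT libraries and are not independent of each other.

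Of the 10 endothelial genes, 0 passed in any comparison, which is also the share over all genes (0%) and so says nothing about these genes in particular. Kdr and Flt1, the VEGF receptor genes, had the largest differences, both higher, relative to the median gene under either scaling, in mice with floxed Insr alleles. Eng had the largest difference in the other direction. The median log2 fold change of the 10 genes was 0.24 in KO against WT (7 higher, 3 lower) and 0.22 in Het against WT (8 higher, 2 lower), beside medians over all tested genes of 0.03 and 0.0046. By library size alone the medians of the 10 genes were −0.92 and −1.12, which is 0.24 above the median gene in each case. Leaving out 1 library moved the KO median from 0.07 (without KO-2070) to 0.44 (without WT-1860), and the Het median from 0.10 (without WT-2067) to 0.43 (without WT-1860). In KO against Het the median was −0.05, the single values ran from −0.18 to 0.21 and 6 of 10 genes were lower. In bulk tissue, more endothelial cells and more RNA of a gene per endothelial cell cannot be told apart.

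**Figure D1:**
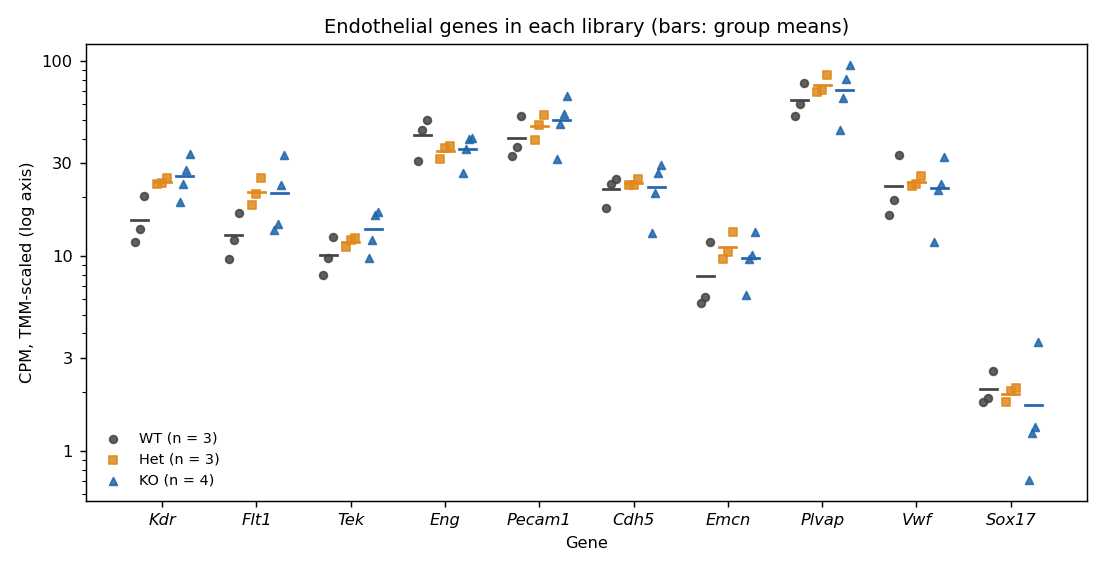
CPM of the 10 endothelial genes (log axis) in each library, coloured by genotype group, with bars at group means. Kdr and Flt1 are the genes whose WT libraries, at 11.8 to 20.2 and 9.64 to 16.7 CPM, lie lowest against the others, while for the remaining genes the groups lie over each other.

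Kdr stood at 13.8, 20.2 and 11.8 CPM in WT-2404, WT-1860 and WT-2067, at 25, 23.5 and 23.6 in Het-2066, Het-1770 and Het-2042, and at 23.3, 33.5, 27.7 and 18.9 in KO-2079, KO-2070, KO-2124 and KO-2126. All 3 Het libraries lay above every WT library, and so did 3 of 4 KO libraries, with KO-2126 just below WT-1860. Group values were 15.3 ± 4.4 CPM (mean ± SD) for the 3 WT mice, 24 ± 0.84 for the 3 Het mice and 25.8 ± 6.23 for the 4 KO mice. The log2 fold change was 0.76 (SE 0.23) in KO against WT, with an adjusted p of 0.121 in edgeR and 0.0520 in DESeq2. It was 0.66 (SE 0.24) in Het against WT, with an adjusted p of 0.196 in edgeR. Exact permutation tests over the libraries gave two-sided p = 0.0857 for KO against WT, where 0.0286 is the smallest that 3 against 4 allows, and 0.1 for Het against WT, the smallest that 3 against 3 allows. Over all 7 libraries with a floxed allele against WT, the log2 fold change was 0.71 (SE 0.21), the edgeR adjusted p 0.0701, the DESeq2 adjusted p 0.0325 and the exact permutation p, unadjusted, 0.0167. Kdr was thus called by DESeq2 and not by edgeR, and it was the 1 member of 10 that DESeq2 called there, beside 4.19% of all genes called as higher. The value of Kdr for floxed against WT ran from 0.56 without WT-2067 to 0.96 without WT-1860, and it was 0.64 (edgeR adjusted p = 0.403) without WT-2404, the library that stands apart.

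Flt1 stood at 9.64, 16.7 and 12.1 CPM in WT-2404, WT-1860 and WT-2067, at 25.2, 18.2 and 20.8 in Het-2066, Het-1770 and Het-2042, and at 14.7, 32.8, 23.0 and 13.6 in KO-2079, KO-2070, KO-2124 and KO-2126. The Het libraries lay above every WT library, while KO-2079 and KO-2126 fell within the WT range. Group values were 12.8 ± 3.58 CPM (mean ± SD) for the 3 WT mice, 21.4 ± 3.54 for the 3 Het mice and 21.0 ± 8.90 for the 4 KO mice. The log2 fold change was 0.72 (SE 0.30) in KO against WT and 0.74 (SE 0.32) in Het against WT, with edgeR adjusted p of 0.187 and 0.230. In KO against WT it was 0.43 without KO-2070, the highest library, and 0.95 without WT-1860. Exact permutation tests gave p = 0.229 and 0.1, two-sided. Over all 7 libraries with a floxed allele it was 0.73 (SE 0.28, edgeR adjusted p = 0.123, DESeq2 0.0918, exact permutation p = 0.0833), and without WT-2404 it was 0.56 (edgeR adjusted p = 0.482).

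Kdr and Flt1 were the 2 of 10 genes with an unadjusted edgeR p under 0.05 and a higher value in each comparison with WT. Over all tested genes the same held for 9.61% in KO against WT, 8.26% in Het against WT and 11.7% in floxed against WT. They were also the 2 of 10 whose TMM-scaled CPM ranges in Het lay wholly above WT, beside 11.3% of all genes. The share of counts from digestive enzymes, given above, was lowest in the WT libraries WT-2404 and WT-1860. WT-2067, with the lowest Kdr at 11.8 CPM, had a share of 71.4%. Whether this share bears on the Kdr and Flt1 values was not tested. With that share as a covariate in edgeR, Kdr differed by 0.74 in KO against WT (adjusted p = 0.844) and Flt1 by 0.53 (adjusted p = 0.902). Without the covariate the values were 0.76 for Kdr and 0.72 for Flt1.

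**Figure D2:**
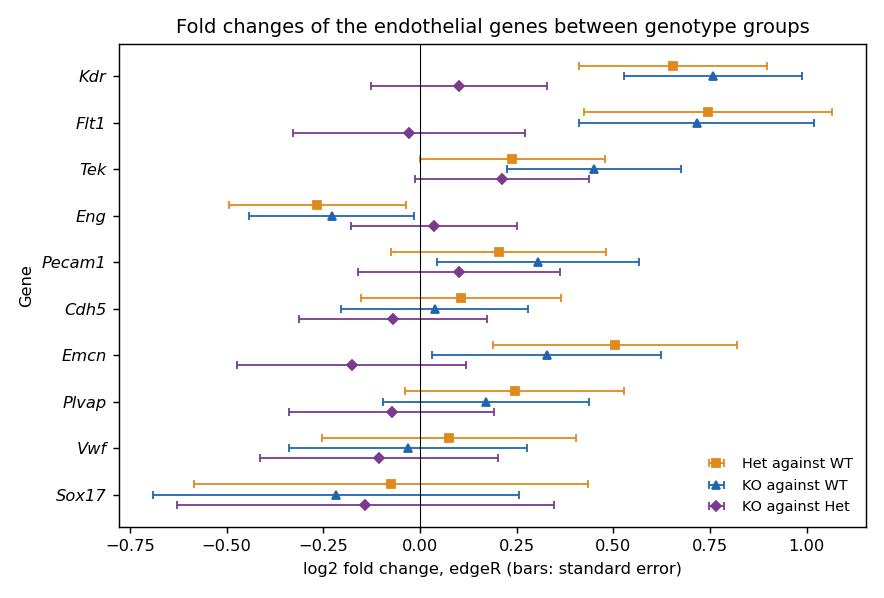
log2 fold change from edgeR (points, with standard errors as bars) of each endothelial gene in Het against WT (squares), KO against WT (triangles) and KO against Het (diamonds), on TMM-scaled counts. Against WT, Kdr and Flt1 lie furthest to the right, at 0.66 to 0.76, and Eng left of 0 at −0.27 and −0.23, while KO against Het stays between −0.18 and 0.21. By library size alone the values against WT shift to the left with the median gene.

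CPM depends on how libraries are scaled, and ratios between endothelial genes in the same library do not. The counts of each gene were therefore also given per 100 counts of the other 9 endothelial genes, a measure chosen after the data had been seen and given without a test. Kdr took 6.70, 7.22 and 6.52 per 100 in WT-2404, WT-1860 and WT-2067, 10.2, 10.1 and 8.73 in Het-2066, Het-1770 and Het-2042, and 10.2, 10.3, 9.89 and 12.0 in KO-2079, KO-2070, KO-2124 and KO-2126. All 7 libraries with a floxed allele lay above all 3 WT libraries. Kdr was 1 of 10 members separated upwards in this way, beside 0.241% of all genes set against the same 10. That share is not a like background, since a member marks the same cell type as its denominator and most other genes do not. The mean log2 ratio was higher by 0.58 in the libraries with a floxed allele, by 0.54 to 0.62 when 1 library at a time was left out, and by 0.65 when 22 other endothelial genes were the denominator.

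Eng, the endoglin gene, lay the opposite way on this measure. It took 25.2, 19.8 and 18.8 per 100 in WT-2404, WT-1860 and WT-2067, 13.0, 16.3 and 14.2 in Het-2066, Het-1770 and Het-2042, and 16.4, 12.7, 14.8 and 17.7 in KO-2079, KO-2070, KO-2124 and KO-2126. Every library with a floxed allele lay below every WT library, 1 of 10 members, but 10.5% of all genes did so, and the share is no result about Eng by itself. The mean log2 ratio differed by −0.50, or −0.31 against the 22 other endothelial genes. Kdr and Eng were also paired after their opposite differences had been seen, so a split between groups was largely set by that choice. Not every pair split the groups: Flt1 counts per 100 Kdr counts were 70.0 to 102.1 in WT, 77.4 to 100.7 in Het and 63.0 to 98.0 in KO. Kdr and Eng set against each other gave 31.1, 40.7 and 38.7 Kdr counts per 100 Eng counts in WT-2404, WT-1860 and WT-2067. The Het libraries had 80.1, 65.6 and 64.5, and the KO libraries 65.7, 83.3, 69.7 and 71.4 per 100 in the same order as above.

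Kdr per 100 counts of Cdh5, the vascular endothelial cadherin gene, was 59.0, 81.7 and 67.0 in the WT libraries, 101.4, 102.0 and 101.9 in the Het libraries and 110.6, 113.9, 104.3 and 143.8 in the KO libraries. All 7 libraries with a floxed allele lay above the 3 WT libraries. Het and KO overlapped in Kdr per 100 counts of the other members and per 100 Eng counts. Per 100 Cdh5 counts every KO library, at 104.3 to 143.8, lay above every Het library, at 101.4 to 102.0. That difference was not tested. Flt1 per 100 counts of the other members was 4.6, 5.88 and 6.66 in the WT libraries, 10.3, 7.65 and 7.58 in the Het libraries and 6.19, 10.1, 8.08 and 8.40 in the KO libraries, so that KO-2079 fell inside the WT range. In Het against WT, Kdr and Flt1 were 2 of 10 members separated upwards, beside 1.49% of all genes, and Eng and Sox17 2 of 10 separated downwards, beside 21.9%. In KO against WT, Kdr and Pecam1 were separated upwards, 2 of 10 beside 0.563%, and Eng downwards, 1 of 10 beside 12%. These shares over all genes have the limit given above and do not show whether the members are unusual.

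**Figure D3:**
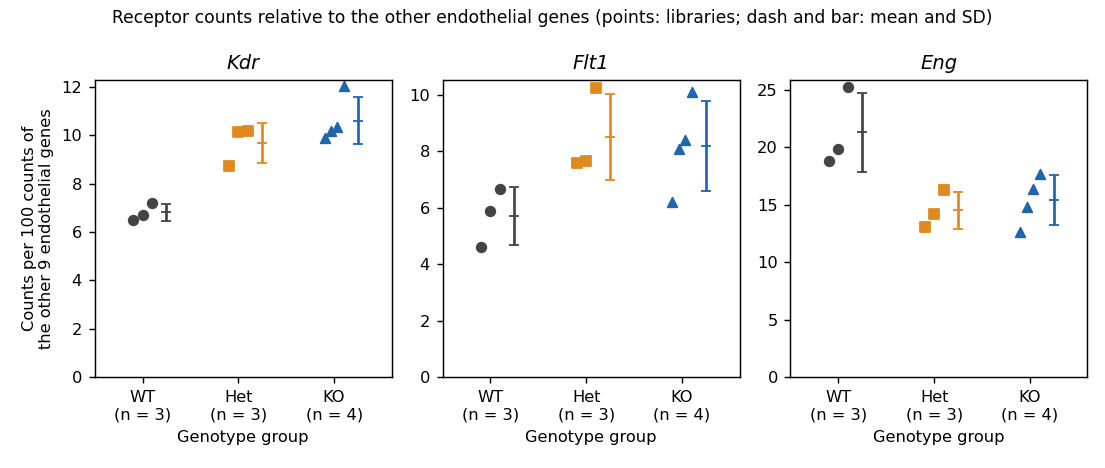
Counts of Kdr, Flt1 and Eng per 100 counts of the other 9 endothelial genes, with a point per library and a dash and bar for the mean and SD of each genotype group (axes start at 0). Kdr lies at 6.52 to 7.22 in WT and at 8.73 to 12.0 in the other libraries, Eng at 18.8 to 25.2 and 12.7 to 17.7.

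Eng in CPM was 44.2, 49.8 and 30.6 in WT-2404, WT-1860 and WT-2067, 31.2, 35.8 and 36.7 in Het-2066, Het-1770 and Het-2042, and 35.4, 40.2, 39.7 and 26.5 in KO-2079, KO-2070, KO-2124 and KO-2126. The ranges overlapped, since WT-2067 was below every other library but KO-2126. Eng differed on the log2 scale by −0.23 (SE 0.21, edgeR adjusted p = 0.526) in KO against WT and −0.27 (SE 0.23, edgeR adjusted p = 0.508) in Het against WT. Eng overlaps Fpgs on the other strand, and whether counting used strand is not stated, so reads of the 2 genes may be mixed to some degree.

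Tek, the angiopoietin receptor gene, was at 7.94, 12.5 and 9.74 CPM in WT-2404, WT-1860 and WT-2067, at 12.1, 11.1 and 12.3 in Het-2066, Het-1770 and Het-2042, and at 12.0, 16.9, 16.2 and 9.81 in KO-2079, KO-2070, KO-2124 and KO-2126. KO-2070 and KO-2124 were above every other library and the remaining libraries were mixed. Tek differed on the log2 scale by 0.45 (SE 0.23, edgeR adjusted p = 0.242) in KO against WT and 0.24 (SE 0.24, edgeR adjusted p = 0.575) in Het against WT.

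Among the junction genes, Pecam1 was at 40.2 ± 10.4 CPM (mean ± SD) for the 3 WT mice, 46.2 ± 6.68 for the 3 Het mice and 49.6 ± 14.5 for the 4 KO mice. On the log2 scale it differed by 0.30 (SE 0.26, edgeR adjusted p = 0.489) in KO against WT and 0.20 (SE 0.28, edgeR adjusted p = 0.694) in Het against WT. Cdh5 had group means close to each other, at 21.9 ± 3.77 CPM (mean ± SD) for the 3 WT mice, 23.6 ± 0.89 for the 3 Het mice and 22.5 ± 7.15 for the 4 KO mice. Its log2 fold changes of 0.04 (SE 0.24) and 0.11 (SE 0.26) changed sign when single libraries were left out. Cdh5 lies over the antisense gene Gm29682, so its counts are uncertain to that extent.

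Emcn was at 7.90 ± 3.39 CPM (mean ± SD) for the 3 WT mice, 11.1 ± 1.93 for the 3 Het mice and 9.80 ± 2.83 for the 4 KO mice, with log2 fold changes of 0.33 (SE 0.30) in KO against WT and 0.50 (SE 0.32) in Het against WT. In edgeR their adjusted p were 0.515 and 0.363. Plvap, whose product spans capillary pores, was the most abundant member in CPM, at 63.3 ± 12.8 (mean ± SD) for the 3 WT mice, 75.0 ± 8.14 for the 3 Het mice and 71.3 ± 22.1 for the 4 KO mice. On the log2 scale it differed by 0.17 (SE 0.27, edgeR adjusted p = 0.721) in KO against WT, and −0.0019 without KO-2070. Plvap overlaps Gtpbp3 on the other strand.

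Vwf was at 22.8 ± 8.89 CPM (mean ± SD) for the 3 WT mice, 23.9 ± 1.46 for the 3 Het mice and 22.3 ± 8.33 for the 4 KO mice, with log2 fold changes of −0.03 (SE 0.31) and 0.08 (SE 0.33) whose sign depended on single libraries and on scaling. Megakaryocytes and platelets also make Vwf. Their 7 marker genes summed to 3.62 to 15.8 CPM in WT, 3.68 to 5.44 in Het and 2.83 to 13.4 in KO, with 5 of the 7 (Ppbp, Gp9, Gp1ba, Gp1bb and Treml1) at 0 in at least 1 library. Vwf was highest in WT-1860 and KO-2070, whose platelet sums were 4.76 and 3.56 CPM. Platelet sums were highest in WT-2404 and KO-2124, at 15.8 and 13.4 CPM, where Vwf was at 16.1 and 23.3 CPM. The part of platelets in the Vwf counts was not tested. Sox17 was the rarest member, with 7 (KO-2126) to 112 (WT-2404) counts. It stood at 1.87, 2.57 and 1.78 CPM in WT-2404, WT-1860 and WT-2067, at 2.02, 1.77 and 2.09 in Het-2066, Het-1770 and Het-2042, and at 1.24, 1.32, 3.6 and 0.71 in KO-2079, KO-2070, KO-2124 and KO-2126. The log2 fold change in KO against WT was −0.22 (SE 0.47, edgeR adjusted p = 0.807), and it was −0.93 without KO-2124, where Sox17 was highest.

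Levels of different genes can be compared only per length. Per kilobase of the longest coding transcript (GENCODE M21), mean CPM per kilobase over the 10 libraries was 35.2 ± 7.77 for Plvap, 13.3 ± 3.20 for Pecam1 and 10.8 ± 2.0 for Eng. Cdh5 followed at 5.68 ± 1.14, Kdr at 3.74 ± 1.07 and Emcn at 3.72 ± 1.08. Flt1 was at 2.71 ± 1.01, Vwf at 2.6 ± 0.73, Tek at 2.59 ± 0.59 and Sox17 at 0.58 ± 0.24 (SD, n = 10 in each case). Plvap was the highest, Cdh5 the fourth and Sox17 the lowest in every library. Pecam1 was above Eng in 9 of 10 libraries. Kdr was above Flt1 in 10 of 10 libraries and above Emcn in 4 of 10, and Emcn was above Vwf and above Tek in 10 of 10 and above Flt1 in 9 of 10. Flt1 was above Vwf in 5 of 10 and above Tek in 4 of 10, and Vwf above Tek in 6 of 10, so that Kdr and Emcn, and likewise Flt1, Vwf and Tek, had no steady order. The order also depended on the length used. Per kilobase of merged exons the means were 9.14 for Eng and 7.35 for Pecam1. On that length Tek was at 2.56, Kdr at 2.45 and Emcn at 1.78.

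Across libraries most of the 10 genes were high or low in the same libraries. After each gene was centred on its own mean log2 CPM, the mean over the 10 genes was −0.31, 0.24 and −0.39 in WT-2404, WT-1860 and WT-2067, 0.12, 0.02 and 0.20 in Het-2066, Het-1770 and Het-2042, and −0.06, 0.39, 0.37 and −0.58 in KO-2079, KO-2070, KO-2124 and KO-2126. The KO group thus held both the highest libraries and the lowest. In KO-2126, 0 of 10 genes were above their own mean, and in KO-2124 and Het-2042 10 of 10 were. The summed CPM of the 10 genes ran from 193 to 301 in WT, 256 to 294 in Het and 176 to 358 in KO. Plvap and Pecam1 kept closest to the joint pattern, with a root mean square distance of 0.080 and 0.11 on the log2 scale, and Sox17 (0.44) and Flt1 (0.30) strayed furthest. The SD of log2 CPM over libraries was 0.27 for Eng, the smallest, 0.53 for Flt1 and 0.59 for Sox17, the largest.

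**Figure D4:**
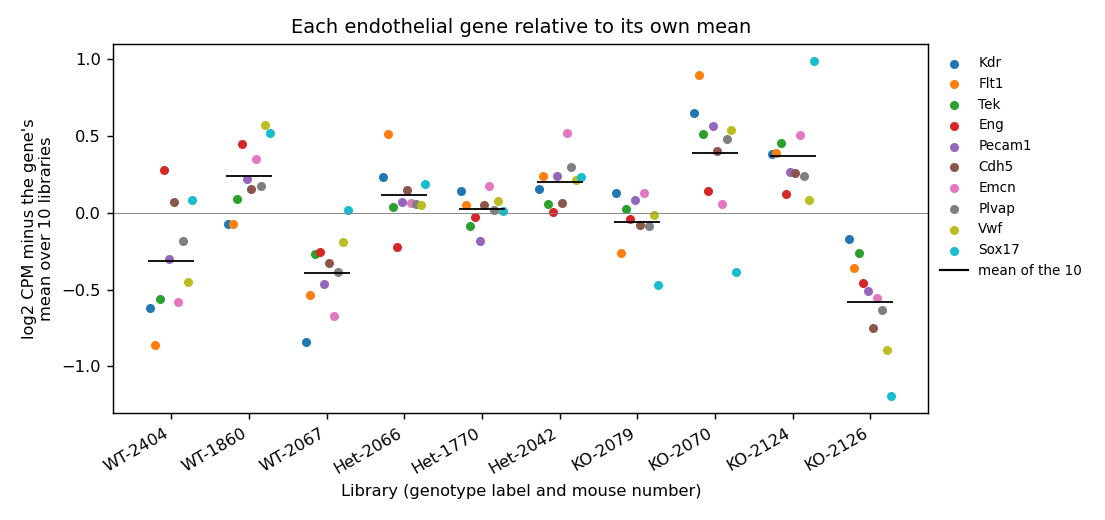
log2 CPM minus the gene's own mean over the 10 libraries, for each endothelial gene (a coloured point per gene) and their mean (black dash), by library. KO-2126 has all 10 genes below 0, KO-2070 and KO-2124 have the highest means at 0.39 and 0.37, and WT-2404 and WT-2067 lie below 0 at −0.31 and −0.39.

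Of 8301 genes with a mean of at least 5 CPM, the 10 closest to the joint pattern of the endothelial genes over the 10 libraries were Tie1, Ly6c1, Epas1, Esam, Tm4sf1, Mmrn2, Plcd1, Skiv2l, Mrpl41 and Zfp629. Their root mean square distances on the log2 scale ran from 0.13 for Tie1 to 0.17 for Zfp629. Tie1 (a receptor related to Tek), Esam (an endothelial adhesion protein) and Mmrn2 (an endothelial matrix protein) stand in the list of 22 other endothelial genes described next. That list did not follow the pattern as a whole. Its further genes of at least 5 CPM ranked from 13 (Robo4) to 7127 (Lmo2) of 8301 in closeness, with Gpihbp1 at 2551 and Sox18 at 5475.

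The 22 other endothelial genes, a list that holds no member, gave a count of 12 higher and 10 lower in KO against WT, with a median log2 fold change of 0.05 and 0 of 22 past the edgeR threshold. In Het against WT the same counts were 12 and 10 with a median of 0.02. Tie1 differed by 0.12 (SE 0.26), Esam by 0.31 (SE 0.28), Erg, an endothelial ETS factor, by −0.06 (SE 0.33), and Cldn5, a tight junction gene, by −0.37 (SE 0.51) in KO against WT. Adgrl4 differed by 0.69 (SE 0.26, edgeR adjusted p = 0.151) in KO against WT and by 0.72 (SE 0.28, edgeR adjusted p = 0.200) in Het against WT. It was the 1 gene of the 22 whose CPM range in Het lay wholly above WT, as did those of Kdr and Flt1. Summed CPM of the 22 genes was 185 to 296 in WT, 234 to 260 in Het and 170 to 345 in KO.

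Among the 10 genes for VEGF and angiopoietin ligands and co-receptors, 3 were higher and 7 lower in KO against WT, with a median of −0.13, and 0 of 10 passed in edgeR. Vegfa, the main ligand of Kdr, was at 15.3, 60.4 and 50.7 CPM in WT-2404, WT-1860 and WT-2067, at 42.6 to 53.5 in Het and at 43.8 to 71.7 in KO, and its log2 fold change in KO against WT was 0.48 (SE 0.37, edgeR adjusted p = 0.440). WT-2404 was far below all other libraries in Vegfa. Vegfb, a ligand of Flt1, differed by 0.71 (SE 0.37, edgeR adjusted p = 0.260). Pgf, also a ligand of Flt1, differed by 0.63 (SE 0.60) and Nrp1, a VEGF co-receptor, by −0.05 (SE 0.23). Angpt1, which activates Tek, differed by −0.08 (SE 0.35) and Angpt2, which can oppose it, by −1.08 (SE 0.55). The lowest values were those of Angpt4 (−2.06, SE 0.54) and of Figf, the table's name for the lymphatic growth factor gene Vegfd (−1.85, SE 0.51), each with an edgeR adjusted p of 0.116. DESeq2 called both as lower.

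Of the endoglin receptor complex and its targets, 9 of 11 genes were tested in KO against WT, 8 lower and 1 higher, with a median of −0.38 and 0 past the edgeR threshold. Acvrl1, the kinase receptor that endoglin assists, differed by −0.38 (SE 0.25), Bmpr2 by −0.10 (SE 0.21) and the target Id1 by −0.42 (SE 0.44). Smad6, an inhibitor that the pathway induces, was the higher gene at 0.80 (SE 0.28, edgeR adjusted p = 0.138). The ligand genes Gdf2 and Bmp10 were at 0 in at least 1 library and were not tested.

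Genes of vessel subtypes and of neighbouring cells also gave 0 calls in edgeR. The 7 arterial genes had a median of 0.02 in KO against WT, with Efnb2, an arterial ligand, at −0.73 (SE 0.26, edgeR adjusted p = 0.140). The 6 of 7 venous and adhesion genes tested had a median of −0.62, with Selp at −0.70 (SE 0.38) and Ackr1 at −0.55 (SE 0.44). Nr2f2, at −0.09 (SE 0.23), and Ephb4, the 1 higher gene of that list at 0.12 (SE 0.16), lay near 0. The 6 of 7 lymphatic genes tested had a median of −0.20, with Prox1, the lymphatic master regulator, at −0.12 (SE 0.45) and Lyve1 at −1.04 (SE 0.53). Pdpn was lowest at −1.36 (SE 0.35, edgeR adjusted p = 0.116, DESeq2 0.0165). Mmrn1 at 0.02 (SE 0.51) and Reln at 0.07 (SE 0.71) were the 2 higher lymphatic genes. Of the 11 genes of mural cells, the contractile cells around vessels, 10 were lower, with a median of −0.49. Acta2 differed by −1.07 (SE 0.30, edgeR adjusted p = 0.116, DESeq2 0.0265), Rgs5, a pericyte gene, by −0.56 (SE 0.20) and Pdgfrb by −0.51 (SE 0.25). Summed mural CPM was 89.0 to 138 in WT, 73.5 to 82.5 in Het and 41.8 to 102 in KO, lowest in KO-2126, the library in which all 10 endothelial genes were also low.

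Markers of other cell types moved with the groups too. The 5 ductal genes (Krt19, Krt7, Epcam, Sox9 and Spp1) summed to 514 to 1101 CPM in WT, 236 to 402 in Het and 160 to 436 in KO, so that WT lay above all other libraries. In KO against WT all 5 were lower and DESeq2 called 5 of 5, edgeR 0 of 5, with Krt7 at −1.97 (SE 0.46, DESeq2 adjusted p = 0.00353, edgeR 0.116). Summed CPM of 7 fibroblast genes was 1253 to 4379 in WT, 537 to 983 in Het and 474 to 1128 in KO, also with WT above all other libraries. These genes did not move alike. In KO against WT, 6 were lower, with Col1a1 lowest at −2.57 (SE 0.62), but Dcn was at 0.0029 (SE 0.24) and Dpt at −0.15 (SE 0.25). Summed CPM of 8 leukocyte genes was 291 to 1030 in WT, 155 to 227 in Het and 90.0 to 331 in KO. Summed CPM of 5 adipocyte genes was 1.59 to 12.6 in WT, 10.6 to 26 in Het and 5.30 to 17.9 in KO. Summed CPM of 6 islet hormone genes was 448 to 5430 in WT, 4720 to 9356 in Het and 3411 to 8076 in KO, lowest in WT-2404, and no gene of these 5 lists was at 0 in any library. Their part in the Kdr, Flt1 and Eng values was not tested.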

How the data were processed

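The deposited table holds raw gene counts, whole numbers that the authors made and did not normalize, with 1 column for each of 10 libraries and 0 columns left over. The submitters' processing notes name DRAGEN, STAR and Cufflinks and the build mm10, with no role or version. Strand use in counting and the annotation are not given in the sources used here. A further part of the genotype shared by all groups is not reported here. The 2 rows that name no gene held 2.70% to 9.01% of counts and stayed out of library sizes and tests. Of 24421 genes, 6269 had no count and 13688 passed edgeR's filterByExpr (minimum count 10). edgeR 4.0.16 (R 4.3.3) was run with TMM factors and a robust quasi-likelihood fit over all 10 libraries, without covariates, and the Benjamini-Hochberg adjustment covered all tested genes, with a threshold of 0.05. DESeq2 1.42.0 was an alternative. log2 CPM used a prior count of 2. Single values were compared by exact two-sided permutation over libraries. Each library is a different mouse by its title. Every pair of libraries within a group differed beyond sampling noise (chi-square per degree of freedom 26.5 to 988). A count of 3 equals 0.158 to 0.256 CPM before scaling. The 10 members and the other lists (15 in all) were chosen with earlier results of these data known. The text names the members, genes of the other lists picked by role, and the 10 genes of at least 5 CPM closest to the members' pattern. Figf, Angpt4, Smad6, Col1a1, Dcn, Dpt, Nr2f2, Ephb4, Pdpn, Mmrn1, Reln, Krt7, Adgrl4, Robo4 and Lmo2 were named after their values were seen. The scripts were tested on simulated data. In a simulated KO against WT comparison, edgeR called 17 of 100 genes with a log2 change of size 1, and 68 of 100 with size 2. False calls numbered 3. Many true changes of the size seen for Kdr and Flt1 would thus be missed.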

Additional observations from a re-analysis of the deposited data

Results flagged for a closer look

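Among 25 measures tested within the KO group for a single library far from the others, 2 stood out, where about 1.25 are expected by chance. The WT and Het libraries were not tested in this way. The summed CPM of the endoglin receptor complex and its targets was 85.1 in KO-2126, against 101.7 to 104.3 in the other KO libraries. The summed CPM of the platelet and megakaryocyte genes was 13.4 in KO-2124, against 2.83 to 3.59 in the other KO libraries, and KO-2124 was also the KO library with the highest Sox17.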

How the results depend on the processing

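No paired analysis was possible because the groups share no replicate numbers. Calls over all genes depended on the processing: in floxed against WT, Het against WT and KO against WT, edgeR's 0 genes became 1753, 326 and 1009 with DESeq2, and 7121, 3140 and 2841 with library size alone. Without a filter on low counts 8 genes passed in floxed against WT. Leaving out single libraries gave 0 to 2829 genes in floxed against WT, 0 to 1160 in Het against WT and 0 to 1932 in KO against WT, each highest without WT-2067. Without KO-2079 it was 50 and without KO-2124 490 in floxed against WT. Of the 10 endothelial genes, 1 (Kdr) was called by DESeq2 in floxed against WT, at an adjusted p of 0.0325. With library size alone 3 passed there (Cdh5, Eng and Vwf, lower) and 1 (Eng, lower) in Het against WT, and their medians were −1.02 in floxed, −1.12 in Het and −0.92 in KO against WT, beside median shifts of all genes of −1.26, −1.36 and −1.17. With 1 library left out, the medians ran from 0.11 to 0.43 in floxed, 0.10 to 0.43 in Het and 0.07 to 0.44 in KO against WT, the extremes being without WT-2067 or KO-2070 and without WT-1860. Kdr and Flt1 kept their direction under every alternative run on TMM-scaled or relative values. Small differences changed sign: with 1 library left out, Cdh5 ran from −0.019 to 0.20 in Het, and its KO value from −0.11 to 0.22, Plvap from −0.0019 to 0.34 in KO, Sox17 from −0.16 to 0.10 in Het and −0.93 to 0.029 in KO, and Vwf from −0.11 to 0.44 in Het and −0.25 to 0.33 in KO. With enzyme share as a covariate, Sox17 was 0.14 and Vwf −0.13 in Het against WT. Relative to the median gene by library size alone, a setting added after the data were seen, Sox17 was 0.0074 and Vwf 0.077 in KO against WT. The cause of these changes was not tested.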
